A study of Mus musculus with 12 samples.

Results

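The data compared here are gene expression values of the tumour cells of mammary tumours from FVB mice, taken from 6 of the 12 arrays of the series, namely those titled as tumor cell. Of these, 3 arrays hold epithelium of tumours labelled Rarb -/- (KO, replicates 1, 3 and 4) and 3 hold epithelium of tumours labelled Rarb +/+ (WT, replicates 1, 2 and 3). All 6 tumours come from MMTV-Wnt1 mice, in which the promoter of mouse mammary tumour virus makes mammary epithelium express the secreted growth factor Wnt1, so KO and WT alike carry the transgene. The Rarb deletion is labelled with no cell type, so tumour cells and host tissue are both given as null. Epithelium was cut from stained sections by laser capture microdissection. Each RNA, labelled with Cy3, shared a 2-colour Agilent array with Universal Mouse Reference RNA labelled with Cy5. The other 6 arrays hold the stroma of the same tumours and enter here through the shared estimate of the spread and through single values beside named genes. The labels do not say that each tumour came from its own mouse, and p-values therefore measure the spread between these samples.

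Retinoic acid receptor beta, the product of Rarb, is a nuclear receptor that binds DNA with a retinoid X receptor and switches genes on when retinoic acid is present. In mammary tumours driven by Wnt1 the transgene keeps the beta-catenin pathway active, and the epithelium holds both luminal cells, which line the ducts and carry hormone receptors, and basal cells, which are contractile and carry keratins of stratified epithelium. The gene groups below are ordered from single genes to division and housekeeping machinery, then to mammary identity, signalling and metabolism, and last to markers of cells that a microdissected epithelial sample can carry over.

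Between 38.8% and 46.3% of probes were well above background in Cy3 on the 6 arrays, no spot was saturated, and precision is limited by the 3 arrays in each group. The luminal markers Krt8, Epcam and Cldn3 were above background on all 6 arrays, and 17 of 19 measured luminal list members were. Markers of other cells were also above background on all 6 arrays, among them the endothelial gene Pecam1, the collagen gene Col1a1 and the T cell gene Cd3e. All 6 arrays share 1 slide. Its upper row holds the KO arrays and its lower row the WT arrays, so the row and the genotype cannot be told apart. The stromal arrays are on another slide with the same layout, so the same holds for stromal differences. Among the 6 epithelial arrays WT replicate 3 stood apart in its reference channel and in 211 spots flagged as non-uniform, against 3 to 7 on the others. Some results that rest on it are given with and without it, but not all. Over all genes the arrays correlated at a mean r of 0.858 within KO, 0.805 within WT and 0.823 between the genotypes.

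Values are log2 ratios of tumour epithelium over reference RNA, so a positive difference means a higher level in KO. The 6 epithelial columns of the authors' deposited table run the other way, as reference over sample. The question was which transcripts of the tumour cells differ with the Rarb genotype. Of 13351 genes tested, 1 was higher in KO at an adjusted p under 0.05 (0.00749%, limma with Benjamini-Hochberg adjustment) and 0 were lower (0.0%), while 1079 (8.08%) had an unadjusted p under 0.05, 724 higher (5.42%) and 355 lower (2.66%). In all, 53.9% of genes had a positive difference. The gene that passed was Tspan1, and the next smallest adjusted p was 0.525. Over all genes the median difference was 0.03, the median size of a difference 0.229 and its 99th percentile 1.647, against a median SE of 0.272. In this fit only Tspan1 passed, and every other epithelial difference below is a measured one that did not pass in it. Stromal, reference channel and alternative fits are named where their values are given.

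Tspan1 is the gene that passed in a receptor knockout, and Saa1 and Saa2 are near-identical paralogs with the most negative differences among genes without overlap. The 250 bases before the annotated starts of these 3 genes are therefore shown from RefSeq (build GRCm38.p6), 5′ to 3′ on the strand of the gene. Capitals mark matches to the nuclear receptor half-sites AGGTCA and AGTTCA, searched on both strands. The windows are chr4:116167599-116167848 (minus strand) for Tspan1, chr7:46742981-46743230 (minus strand) for Saa1 and chr7:46751583-46751832 (plus strand) for Saa2.
Tspan1: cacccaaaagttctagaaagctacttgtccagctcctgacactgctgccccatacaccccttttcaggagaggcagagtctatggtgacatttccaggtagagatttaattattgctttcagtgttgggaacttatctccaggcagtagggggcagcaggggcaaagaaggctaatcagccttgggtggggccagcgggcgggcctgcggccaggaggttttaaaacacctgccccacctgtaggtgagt
Saa1: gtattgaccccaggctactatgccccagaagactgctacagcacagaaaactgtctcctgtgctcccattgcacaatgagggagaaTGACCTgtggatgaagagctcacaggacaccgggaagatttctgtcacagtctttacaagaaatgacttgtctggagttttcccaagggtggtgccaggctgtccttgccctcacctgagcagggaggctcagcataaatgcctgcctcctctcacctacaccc
Saa2: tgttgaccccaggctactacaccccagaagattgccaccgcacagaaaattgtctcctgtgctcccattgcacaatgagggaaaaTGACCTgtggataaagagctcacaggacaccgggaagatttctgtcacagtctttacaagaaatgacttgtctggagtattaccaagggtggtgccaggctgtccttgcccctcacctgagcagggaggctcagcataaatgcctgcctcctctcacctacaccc
The Tspan1 window held no match, which says only that these letters are not in it. In Saa1 and Saa2 an AGGTCA stood on the opposite strand. It shows above as TGACCT, which begins at -164 and -165 from the start. Of 32851 promoter windows of the same length in the table, 24.2% held at least 1 match. Saa1 and Saa2 shared 197 of 249 bases in an ungapped comparison shifted by 1 base (79.1%).

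Tspan1, which encodes a tetraspanin of the plasma membrane, had log2 ratios of 3.13, 3.58 and 3.97 on the KO arrays and 0.88, 0.78 and 0.37 on the WT arrays. Every KO value lay more than 2 log2 units above every WT value. Its level was 7.37-fold higher in KO (log2 difference 2.88, SE 0.31, limma adjusted p = 0.0324), and the reference channel differed by -0.05. Without any 1 of the 6 arrays the difference stayed between 2.68 and 3.1, but the adjusted p was then 0.0636 to 0.276. In a limma fit of the 6 epithelial arrays alone, with no stromal arrays in the spread, it was 0.357. In stroma of the same tumours the Tspan1 difference was 0.52, and the epithelial effect exceeded the stromal one by 2.37 (limma, tumour as a block, adjusted p = 0.0586). Over all genes that test called 0 genes, with 2418 at an unadjusted p under 0.05 (18.1%).

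The largest positive difference among genes whose groups did not overlap was in Crym, which encodes the thyroid hormone binding protein mu-crystallin. Its log2 ratios were 5.64, 6.13 and 5.60 in KO and 0.45, 3.05 and 1.98 in WT, a 15.6-fold higher mean. The KO values lay close together while the WT values were widely spread, and the difference of 3.96 had an SE of 0.90 (limma adjusted p = 0.525). Cited1, a transcriptional coregulator of hormone-responsive luminal cells, had 4.90, 7.02 and 4.99 in KO and 4.69, 4.66 and -1.62 in WT. WT replicates 1 and 2 lay just under the lowest KO array and WT replicate 3 far below it, and without that array the difference was 0.96 in place of 3.06. Slc14a1, which encodes a urea transporter, had -0.22, 0.38 and 0.27 in KO and -2.98, -3.41 and -1.32 in WT, where 2 of 3 arrays were above background (difference 2.71, SE 0.69). Rnu3b1, a small nucleolar RNA gene with near-identical copies whose signals the probe may mix, had a difference of 2.28.

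Genes at least 2-fold apart whose 3 KO and 3 WT values did not overlap numbered 69 on the KO-higher side (0.517% of genes tested) and 87 on the KO-lower side (0.652%). Without overlap the sign cannot change when 1 array is left out, so only the size is informative there. Of the 69 and 87 genes, 32 and 26 stayed at least 2-fold in each of the 6 leave-one-out fits. Those with the smallest p on the KO-higher side are described first. Il19, a cytokine of the interleukin 10 family, had 1.90, 1.38 and 1.03 in KO and 0.06, 0.02 and 0.27 in WT, with a difference of 1.32 (SE 0.25) and 0.90 with a second probe. St8sia6, a sialyltransferase gene, had 3.55, 2.29 and 2.84 in KO and 1.12, 1.47 and 1.83 in WT. Trpm6, a magnesium channel gene, had a difference of 1.5 and Pigz, an enzyme gene of GPI anchor assembly, one of 1.22. Pigz was also higher in KO stroma (1.18, adjusted p = 0.0318). Tnfrsf12a, the receptor gene of the cytokine TWEAK, had a difference of 1.12 and Mospd1 one of 1.0. Tspan18 had 2.48, 3.48 and 3.39 in KO and 1.64, 2.19 and 1.70 in WT (1.28), but a second probe gave 0.02.

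On the KO-lower side the same rule gave genes of varied function. Sbk1, a kinase gene, had 1.33, 1.04 and 0.81 in KO and 2.27, 2.07 and 2.08 in WT, a difference of -1.08 (SE 0.20). It was lower in KO stroma too (-1.26, limma adjusted p = 0.0085), and its reference channel on the epithelial arrays differed by -0.33. Hspb9, a small heat shock protein gene, had 1.49, 0.85 and 0.71 against 2.19, 1.89 and 2.12 (-1.05), again with a lower stromal value (-1.04, adjusted p = 0.0249). The KO and WT values of Sbk1 and Hspb9 were each separated by a gap wider than the spread within WT. Tcp10a was not well above background on any KO array and was at least 2.78-fold lower there, from per-channel values that are open to dye bias. Ttc7b had -1.06, Arhgap20, which encodes a GTPase activating protein, -1.55, Chst15, a sulfotransferase gene of chondroitin sulfate, -1.11, and Deup1, a gene of centriole amplification above background on 1 of 3 KO arrays, -1.05. Pear1 had -1.55 and Opn1mw, a cone opsin gene, -1.66, each above background on 2 of 3 KO arrays. Cutal had -1.16 and a second probe of it -0.05.

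The largest negative differences among genes without overlap were in Saa2 and Saa1, which encode acute-phase serum amyloid A proteins. Saa2 had 3.34, 2.34 and 1.35 in KO and 6.21, 8.49 and 4.6 in WT, a 17.1-fold lower mean in KO (-4.10, SE 1.33). Saa1 had 0.76, 0.19 and -0.19 in KO and 4.17, 5.93 and 1.61 in WT (-3.65, SE 1.31). WT replicate 2 was highest and WT replicate 3 lowest of the WT arrays for both, and since the paralogs are near-identical their probes may share signal. Stromal differences were of like size, -3.43 for Saa2 and -3.15 for Saa1, and also did not pass. Thrsp, a lipogenesis gene, had 5.69, 4.59 and 2.97 in KO and 8.35, 6.48 and 6.73 in WT (-2.77, SE 1.26). Kcnj8, a potassium channel gene of pericytes, had 0.69, -0.25 and -0.23 in KO, where 1 of 3 arrays was above background, and 3.02, 1.46 and 2.59 in WT (-2.29, SE 0.55).

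**Figure D1:**
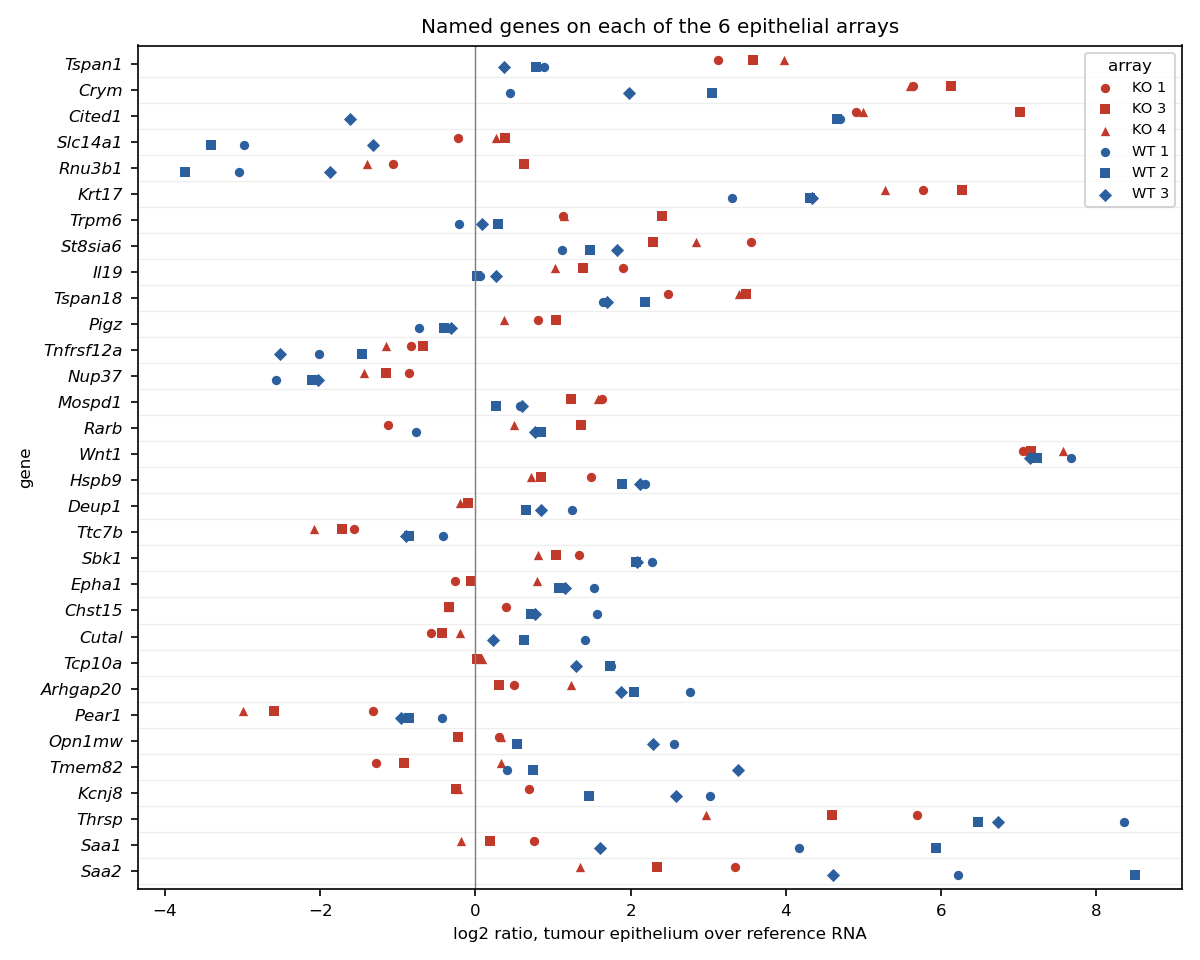
Log2 ratio of tumour epithelium over reference RNA (x axis) of the genes described (y axis), with 1 point for each of the 3 KO arrays (red) and 3 WT arrays (blue). Tspan1 has KO values of 3.13 to 3.97 and WT values of 0.37 to 0.88, while Rarb and Wnt1 overlap between the genotypes.

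The targeted gene itself did not separate the groups. Rarb had log2 ratios of -1.13, 1.36 and 0.50 in KO and -0.76, 0.85 and 0.77 in WT (difference -0.04, SE 0.71, limma adjusted p = 0.993), and the position of its probe relative to the deleted part is not known here, so it checks nothing about the labels. The Wnt1 transcript had 7.05, 7.16 and 7.57 in KO and 7.67, 7.24 and 7.14 in WT (-0.09, SE 0.29). A dimmer second Wnt1 probe had 1.44, 0.96 and 1.10 against 3.28, 2.11 and 1.77 (-1.22), and the reference channel of the first probe was itself lower on the KO arrays by -0.77, so the 2 probes do not give the same answer for the transgene.

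By the labels the reference channel carries the same RNA on every array. Its KO minus WT difference was taken from single-channel levels in a separate limma fit, not from ratios. Counts of genes called in the reference are therefore not on equal terms with those of the ratios. The reference channel differed less than the sample channel, with a median size of 0.075 against 0.263 for Cy3 alone, and 99th percentiles of 0.769 and 1.805. At an adjusted p under 0.05, 21 genes were lower on the KO arrays in the reference (0.157%, limma) and 1 was higher, Pabpc5 (0.61), with 1072 at an unadjusted p under 0.05 (8.03%). The 21 all lay in the first 110 of 384 spot rows and the first 55 of 164 columns, a corner that holds 10.3% of all genes tested (its limits were set after these positions were seen). Over all 1375 genes of that corner the median reference difference was 0.01. The 21 included the neuropeptide gene Galp (-1.43), the glycosyltransferase gene A4galt (-1.21), the homeobox gene Barhl1 (-1.24) and Wnt1. All 21 were also lower in Cy3 alone (median -0.92), and their ratios had a median difference of -0.19.

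A second departure was on WT replicate 3, where the reference signal of 272 genes (2.04%) lay more than 2-fold from its median over the 6 arrays, 270 of them above it, against 13 to 33 genes on each other array. For these 272 genes the reference was higher by a median of 2.40 log2 units on WT replicate 3, and the sample still exceeded it, with a median ratio of 2.79 there. The same median ratio was -1.18, -0.35 and 0.16 on KO replicates 1, 3 and 4, and -0.20 and 0.45 on WT replicates 1 and 2. Their KO minus WT difference had a median of -1.38 and was negative in 263. Of the 450 genes at least 2-fold lower in KO (3.37% of genes tested) 180 were among them (40.0%), and of the 146 at least 2-fold higher (1.09%) 1 was. Among those without overlap between the groups, 20 of 87 lower genes and 1 of 69 higher genes were. With every departing value on any of the 6 arrays set missing, 291 genes were at least 2-fold lower and 150 at least 2-fold higher. This alternative was chosen after seeing the data.

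Genes of interest for a mammary tumour lie in this set. Notch1, a receptor gene of the Notch pathway, had -1.42, -0.41 and 0.25 in KO and -0.04, 0.77 and 3.34 in WT, a difference of -1.89 that became -0.90 with the departing value missing. The mesenchymal transcription factor gene Zeb2 likewise moved from -1.58 to -0.77, with -0.71 for a second probe. The apoptosis gene Bax moved from -1.24 to -0.60, and the adiponectin gene Adipoq from -2.15 to -1.38. Tgm2, a transglutaminase gene known to respond to retinoic acid, moved from -1.11 to -0.55, and its second probe gave 0.21. The uncharacterised membrane protein gene Tmem82 moved from -2.13 to -1.19. These 6 differences were smaller without the value on WT replicate 3 and kept their sign. For the ephrin receptor gene Epha1 the reference departed on WT replicates 1 and 3, and with both values missing the difference went from -1.10 to -0.92, with WT replicate 2 as the only WT value.

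**Figure D2:**
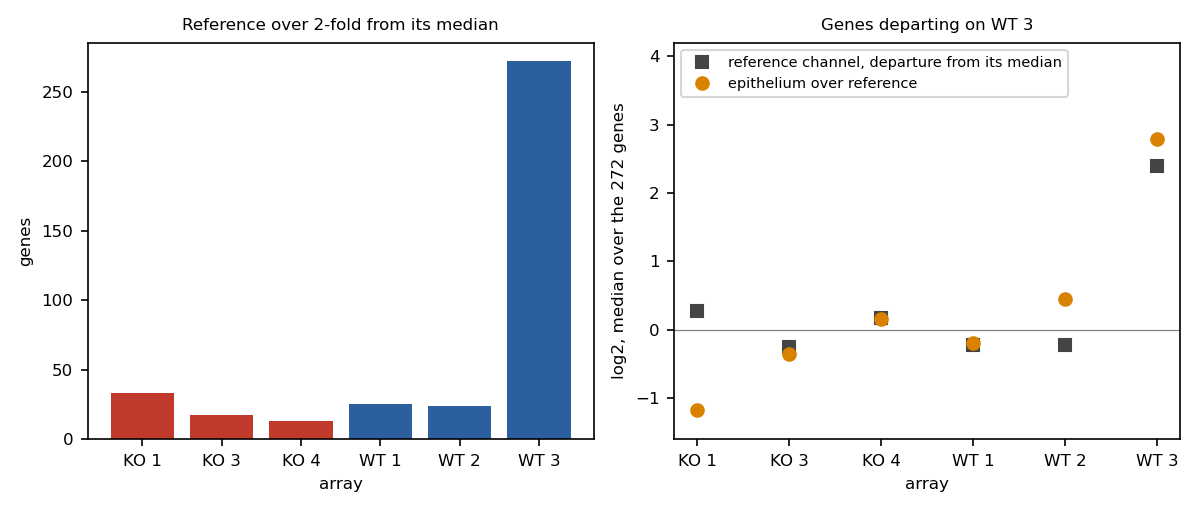
Left, number of genes whose reference (Cy5) signal lies more than 2-fold from its median over the 6 epithelial arrays, by array, with KO in red and WT in blue. Right, median over the 272 genes that depart on WT replicate 3 of the reference departure (squares) and of the log2 ratio of epithelium over reference (circles) on each array, which reach 2.40 and 2.79 on WT replicate 3.

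**Figure D3:**
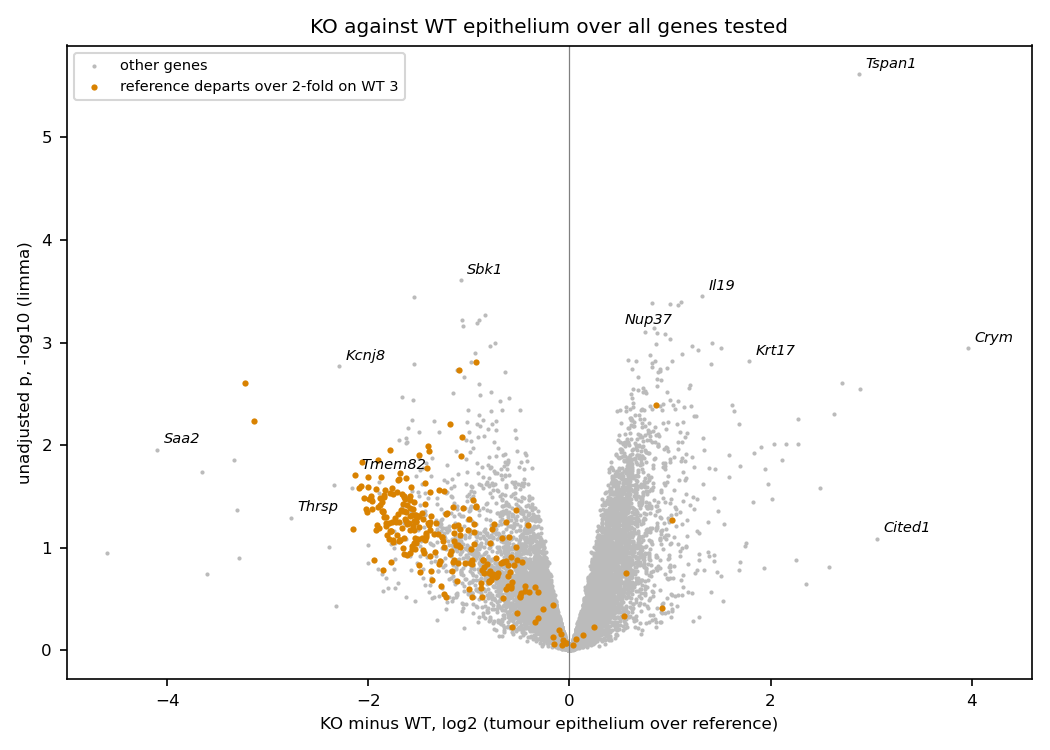
KO minus WT difference in log2 ratio (x axis) and unadjusted limma p as -log10 (y axis) for the 13351 genes tested, each a point. The 272 genes whose reference departs on WT replicate 3 (orange) lie mostly to the left, with 263 negative, and Tspan1 stands alone at the top.

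Functional groups were described with 45 gene lists, which hold 894 genes, 763 of them measured. A list is given by the median difference of its measured members, against 0.03 over all genes, and by how many members had non-overlapping groups, against 9.53% (KO higher) and 4.44% (KO lower) of all genes, 14.0% together. Since these lists carry no test of their own, a high rank is a description. Medians ran from 0.81 for mitosis genes to -0.79 for milk genes, and no list member other than Tspan1 passed. In 5 of 45 lists the array medians of KO and WT did not overlap, namely oestrogen and progesterone response, nuclear pore, spliceosome, and cytokine and chemokine genes on the higher side and fatty acid synthesis genes on the lower side.

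**Figure D4:**
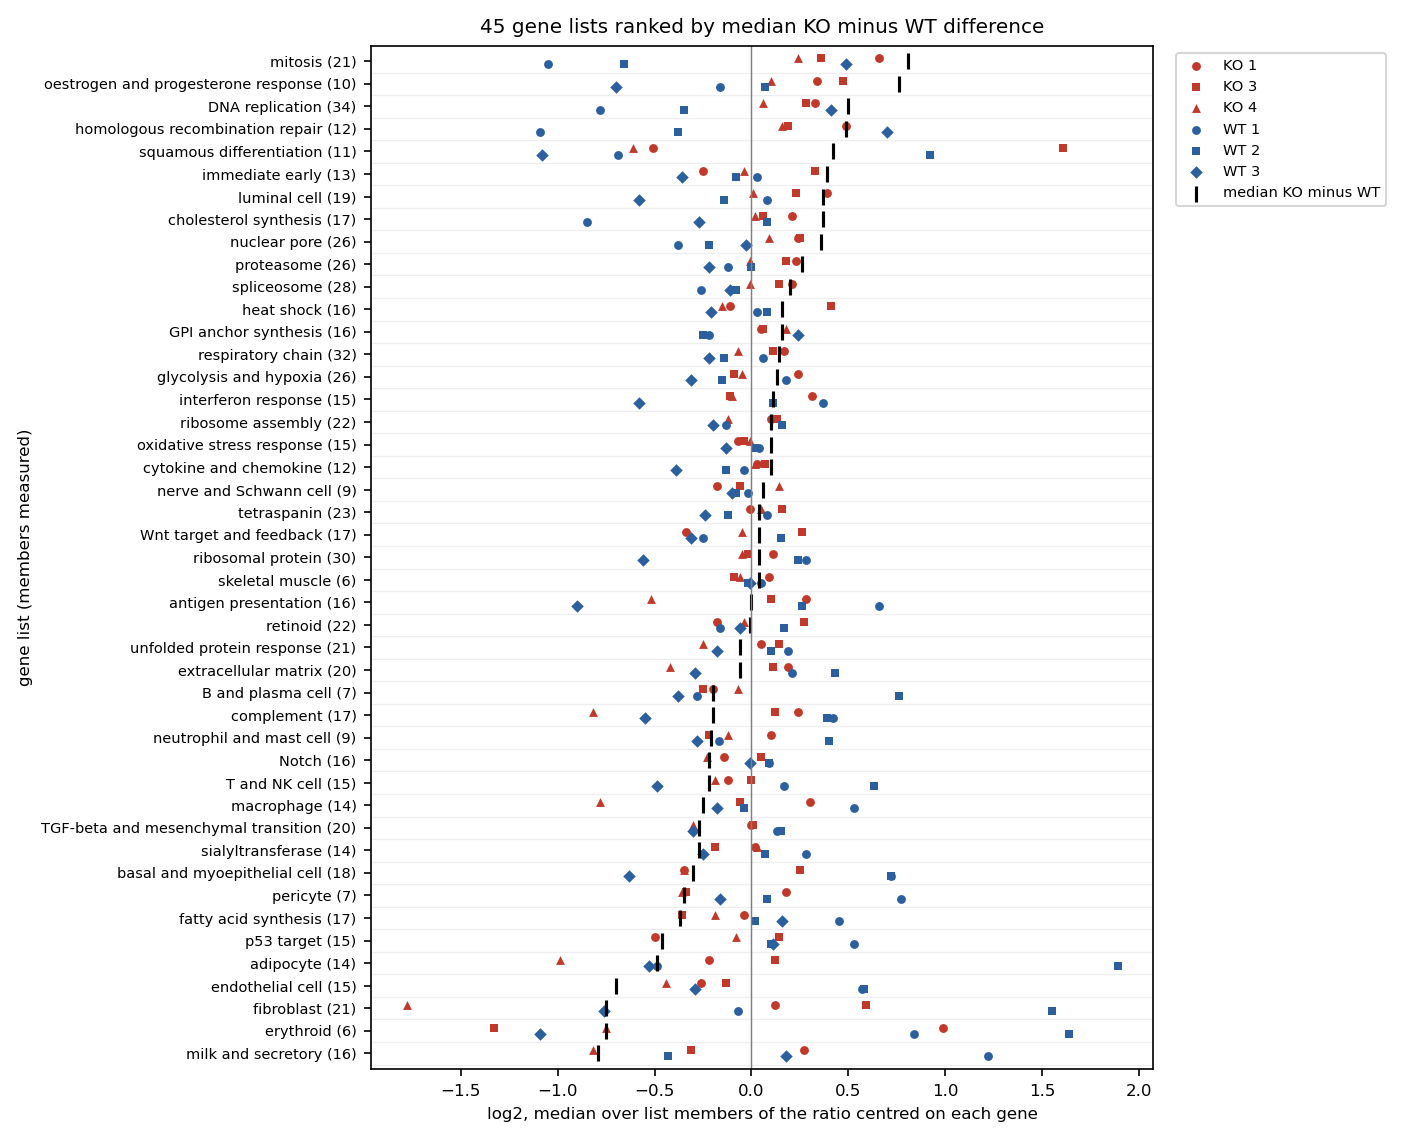
Median over list members of the log2 ratio centred on each gene (x axis) on each of the 3 KO arrays (red) and 3 WT arrays (blue), with the median KO minus WT difference as a black bar, for 45 lists ranked by that difference (y axis, measured members in parentheses). On WT replicate 3 mitosis genes lie within the range of the KO arrays and DNA replication genes above it, while nuclear pore genes separate all 3 KO arrays from all 3 WT arrays.

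Cell division genes were mostly positive. All 21 measured mitosis genes had a positive difference (median 0.81), and 4 had non-overlapping groups. Aurka, a spindle kinase gene, had -1.39, -1.45 and -1.53 in KO and -3.01, -2.71 and -1.58 in WT (0.97, SE 0.31). Cenpe, a kinetochore motor gene, had -0.44, -0.78 and -0.78 in KO and -2.91, -2.57 and -0.87 in WT (1.45, SE 0.51), the spindle assembly gene Tpx2 had 1.15 and the kinase gene Plk1 0.83. In all 4 the values on WT replicate 3 lay next to the KO arrays and those on WT replicates 1 and 2 lay lower. The centred list median was 0.66, 0.36 and 0.24 on the KO arrays and -1.05, -0.66 and 0.49 on the WT arrays. Of 34 DNA replication genes 31 were positive (median 0.50, none with non-overlapping groups), with 0.95 for the helicase gene Mcm4 and 0.91 for Mcm3. Of 12 homologous recombination repair genes 10 were positive (0.49), with 0.98 for Rad54l. Without WT replicate 3 the medians were 1.22, 0.88 and 0.97, and without WT replicate 1 they were 0.50, 0.23 and 0.09. With each array centred on its median they were 0.48, 0.22 and 0.18, and 0 mitosis genes had non-overlapping groups, so mitosis genes then ranked below hormone response genes (0.55).

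Nuclear pore genes, whose products form the channel between nucleus and cytoplasm, were the list with the most non-overlapping members, 13 of 26 higher and 1 lower in KO, and the centred list median was 0.24, 0.25 and 0.09 on the KO arrays and -0.38, -0.22 and -0.03 on the WT arrays. Nup37, of the outer ring of the pore, had -0.86, -1.15 and -1.44 in KO and -2.57, -2.10 and -2.03 in WT (1.08, SE 0.21). Nup88, of the cytoplasmic face, had -0.24, -0.01 and -0.09 against -0.94, -0.92 and -0.75 (0.76, SE 0.16). The 3 KO values of each lay clear of the WT values, as did those of Nup107, also of the outer ring (0.79), and Nup54, of the central channel (0.67). The list median of 0.36 ran from 0.28 to 0.45 over the leave-one-out fits. Both the median and the count depended on the scaling. With each array centred on its median, where the median of all genes was -0.17, the list had a median of 0.10 and 3 members non-overlapping and higher, and in the authors' deposited table it had 0.31 and 6.

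Proteasome genes had a median of 0.26 with 10 of 26 non-overlapping and higher in KO, and spliceosome genes 0.20 with 7 of 28 higher and 1 lower, but with median centring these medians were -0.06 and -0.07, with 0 members of either list non-overlapping and higher and 5 spliceosome genes lower. The spliceosome median was 0.11 without WT replicate 1. Members included the proteasome genes Psmb5, a catalytic subunit (0.68, and -0.03 with a second probe), Psmc5 (0.57) and Psmc2 (0.43, and 0.36 with a second probe), ATPases of its cap, and Psmd2 (0.45). Snrpe, a core protein gene of the splicing particles, had 0.98, 1.01 and 0.74 in KO and -0.02, 0.25 and 0.45 in WT (0.68, SE 0.17, and 0.48 with a second probe). The splicing genes Snrnp40, Sf3b3 and Snrpa had 0.80, 0.55 and 0.50. Such small positive differences were common, since 1273 genes had non-overlapping groups with KO higher and 593 with KO lower, which makes 68.2% of them higher. That split was 13.0% with median centring and 42.1% in the authors' deposited values, so for differences of this size the direction depended on the scaling.

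Hormone response genes of luminal cells had a median of 0.76 over 10 measured members, 8 of them positive and 3 non-overlapping. Prlr, the prolactin receptor gene, had 5.22, 6.49 and 5.56 in KO and 4.70, 4.08 and 3.4 in WT (1.70, SE 0.59), but a dimmer second probe gave -0.29. Pgr, the progesterone receptor gene, had 2.60, 4.59 and 2.83 against 2.23, 3.39 and 1.05 (1.12), so the groups overlapped, and Myb had 0.86. KO replicate 3 was the highest of the 6 arrays for Prlr, Pgr and Cited1, and the list median ran from 0.44 without WT replicate 3 to 1.10 without KO replicate 4. The wider luminal list had a median of 0.37 with 14 of 19 positive. In it Foxa1, a transcription factor gene needed for oestrogen receptor binding, had 2.16, 3.92 and 2.07 in KO and 0.78, 1.76 and -0.32 in WT (1.97, SE 0.75), while the epithelial transcription factor gene Ehf had -1.10, and -0.53 with a second probe.

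The basal and myoepithelial list had a median of -0.30 with 12 of 18 negative, and its members lay on both sides. Krt17, a basal keratin, had 5.77, 6.27 and 5.27 in KO and 3.30, 4.31 and 4.34 in WT, a 3.45-fold higher mean in KO (1.79, SE 0.42). Mylk, the smooth muscle myosin kinase gene, was not above background on any KO array and was at least 2.72-fold lower in KO. Myh11, smooth muscle myosin, had 1.25, 1.5 and 0.29 in KO and 5.13, 3.69 and 0.23 in WT, where WT replicate 3 lay below the KO arrays. Procr, a stem cell surface receptor gene above background on 1 of 3 KO arrays, had -0.56. Leaving out WT replicate 3 gave a list median of -0.80, and leaving out WT replicate 2 gave -0.04.

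Milk and secretory genes had a median of -0.79, with 11 of 16 negative and no member with non-overlapping groups. The median was -0.28 without KO replicate 4, -0.47 without WT replicate 1 and -1.18 without KO replicate 1. Wap, the whey acidic protein gene, had 5.10, 2.49 and 2.06 in KO and 9.03, 4.0 and 6.53 in WT (-3.30, SE 1.43), and -3.54 with a second probe. The casein gene Csn1s2a had 5.29, 1.40 and -0.04 against 10.07, 1.5 and 8.86 (-4.59, SE 2.65), above background on 2 of 3 KO arrays. In both, replicate 1 was the highest array of its genotype and WT replicate 2 lay within the KO range. The lipase gene Cel had -0.76. The squamous list had 0.42, with the desmosome gene Dsp at 1.48, whose highest value, 4.90, was on KO replicate 3, and the list median was -0.17 without that array and -0.05 without WT replicate 3.

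Signalling lists other than hormone response had 1 to 3 non-overlapping members each. Of 17 Wnt target and feedback genes (median 0.04) Ccnd1, the cyclin D1 gene, had 1.27, 1.11 and 1.01 in KO and 0.93, 0.47 and 0.36 in WT (0.55), and Cd44, an adhesion receptor gene, 1.01 and 0.87 with a second probe. Myc was on the other side, at -0.36, -0.35 and -0.84 against 0.33, 0.31 and 0.15 (-0.78, SE 0.40). Lgr5, a stem cell receptor gene, had 5.05 on KO replicate 3 and -0.19 to 1.18 on the other 5 arrays. In the TGF-beta list (-0.27, 15 of 20 negative) the repressor gene Skil had 0.88, 1.19 and 0.93 in KO and 0.20, 0.09 and 0.26 in WT (0.82, SE 0.16), and in the Notch list (-0.22, 12 of 16 negative) the feedback gene Nrarp had 0.52, above background on 2 of 3 KO and 1 of 3 WT arrays. The TGF-beta median was -0.11 without WT replicate 1 and the Notch median -0.08 without KO replicate 4.

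Retinoid genes, which synthesise, bind, sense or break down retinoic acid, had a median of -0.01 with 11 of 22 positive. Cyp26b1, which encodes an enzyme that breaks down retinoic acid, had 1.75, 3.80 and 1.92 in KO and 1.34, 0.41 and -0.62 in WT (2.11, SE 0.72). Its KO values all lay above its WT values, with KO replicate 1 nearest to WT replicate 1. Rxrg, a retinoid X receptor gene, had 0.56, 0.53 and 0.50 against 1.09, 0.93 and 0.89 (-0.44, SE 0.14), but 0.38 with a second probe. Rxra had -0.64, above background on 2 of 3 KO arrays, and 0.04 with a second probe. None of these passed (limma adjusted p = 0.613 for each).

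Among 23 tetraspanin genes (median 0.04, 13 positive) Tspan1 was the only one to pass and Tspan18 the only other with non-overlapping groups. Tspan15 had 1.24, 0.14 and 0.51 in KO and 2.83, 1.15 and 1.54 in WT (-1.21), and Tspan8 -0.38, 0.74 and -1.34 against 1.66, 0.96 and -0.20 (-1.13). Both had overlapping groups and the opposite sign to Tspan1. Cytokine and chemokine genes had a median of 0.10 with 3 of 12 non-overlapping and higher. Besides Il19 these included Il33, an alarmin gene, with -0.82, 0.83 and 0.96 in KO and -1.54, -1.37 and -2.16 in WT (2.02, SE 0.82).

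Lipid lists were on opposite sides. Fatty acid synthesis genes had a median of -0.37, with 6 of 17 non-overlapping and lower in KO and 12 negative, and the centred list median was -0.04, -0.36 and -0.19 on the KO arrays and 0.45, 0.02 and 0.16 on the WT arrays. After Thrsp, the member with the next smallest p was Srebf1, the transcription factor gene that drives lipogenesis, with 1.72, 1.37 and 1.97 in KO and 2.33, 2.02 and 2.45 in WT (-0.58). The acetyl-CoA enzyme genes Acss2 (-0.63, and -0.32 with a second probe) and Acly (-0.37) were on the same side. Cholesterol synthesis genes had 0.37, with 4 of 17 non-overlapping and higher, among them Idi1 (0.65) and Ebp (0.37), while Dhcr7 had 0.69 with overlapping groups. With median centring the 2 medians were -0.66 and 0.02. Non-overlapping fatty acid genes were then 7 lower, against 5 lower in the authors' deposited table and 2 lower and 1 higher in Cy3 alone. Non-overlapping and higher cholesterol genes numbered 0 with median centring, 0 in the deposited table and 4 in Cy3 alone. In both lists 0 members had an unadjusted p under 0.05 (limma), against 8.08% of all genes. The fatty acid median was -0.11 and the cholesterol median 0.12 without WT replicate 1.

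Targets of the tumour suppressor p53 had a median of -0.46 with 13 of 15 negative and 2 non-overlapping and lower. Ccng1, the cyclin G1 gene, had -1.6, -1.36 and -1.90 in KO and 0.09, -1.0 and -0.91 in WT (-1.01, SE 0.30), and Zmat3, an RNA binding protein gene, -0.64. Bbc3, an apoptosis gene, had -1.15 with overlapping groups. WT replicate 1 was the highest array for the list, and without it the median was -0.09. Glycolysis and hypoxia genes had a median of 0.13, with 2 of 26 non-overlapping and higher and 1 lower. They included Pfkp (0.91, and 0.30 with a second probe) and Eno1 (0.69). Unfolded protein response genes had -0.06, with 1 of 21 higher and 1 lower, and Manf at -0.80. Oxidative stress genes had 0.10, with 2 of 15 lower. Among them were the detoxification genes Ephx1 (-0.65, and -0.31 with a second probe) and Gsta3 (-1.51, and -1.16 with a second probe, above background on 2 of 3 KO arrays).

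Most lists of other cell types had negative medians, apart from nerve (0.06) and skeletal muscle genes (0.04). Endothelial genes had -0.70, with 13 of 15 negative and 4 non-overlapping and lower in KO. Robo4, a guidance receptor gene of vessels, had 3.19, 3.13 and 1.32 in KO and 4.54, 4.28 and 3.67 in WT (-1.62, SE 0.51). Cldn5, a vascular tight junction gene, had 0.38, 0.67 and -0.03 against 2.77 and 2.58 (-2.34, SE 0.88), with no value on WT replicate 3 and 2 of 3 KO arrays above background. Sox18 had -0.61, above background on 1 of 3 KO arrays, and Esam -1.90, or -1.07 without its departing reference value. Without WT replicate 3 the list median was -1.0, and over the leave-one-out fits it stayed at -0.53 or below. In bulk samples fewer cells of a type and less RNA per cell cannot be told apart.

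Fibroblast genes had a median of -0.75 with 14 of 21 negative, and their spread within each genotype was wider than the difference. The centred list median was 0.12, 0.59 and -1.78 on the KO arrays and -0.07, 1.55 and -0.76 on the WT arrays, so KO replicate 4 was lowest and WT replicate 2 highest. The median difference was 0.09 without KO replicate 4 and 0.08 without WT replicate 2, but -1.36 without KO replicate 3 and -1.44 without WT replicate 3. Fap, a protease gene of activated fibroblasts, had 0.68, 0.65 and -0.01 in KO and 1.81, 2.54 and 0.81 in WT (-1.28, SE 0.55), and Pdgfrb, above background on 2 of 3 KO arrays, had -1.26. Matrix genes had -0.06, with -0.73 for the laminin gene Lamc1 and -1.12 for the elastin gene Eln.

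Adipocyte genes had -0.49 and erythroid genes -0.75, each highest on WT replicate 2, at a centred median of 1.89 and 1.64. Without that array the medians were -0.02 and -0.28, while without WT replicate 3 they were -1.08 and -1.52. Lpl, the lipoprotein lipase gene, had -0.37, -0.95 and -2.17 in KO and 0.43, 1.14 and 0.62 in WT (-1.90, and -0.46 with a second probe), and the gluconeogenic gene Pck1 moved from -1.54 to -0.93 without its departing value. The globin gene Hbb-bt had 4.06, 1.33 and 1.32 against 4.68, 5.49 and 1.76 (-1.74). Pericyte genes had -0.35, with -0.87 for Abcc9, above background on 1 of 3 KO arrays, 0.53 for Mcam (-0.07 with a second probe), and Kcnj8 at -2.29. Macrophage genes had -0.25, with 12 of 14 negative and -1.0 for the lysozyme gene Lyz1, but the median was 0.01 without KO replicate 4, where 7 of 14 were positive, and -0.04 without WT replicate 1. The pericyte median was -0.05 without WT replicate 1. The centred array medians of every list of other cell types overlapped between the genotypes, and the part of such cells in the other differences was not tested.

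**Figure D5:**
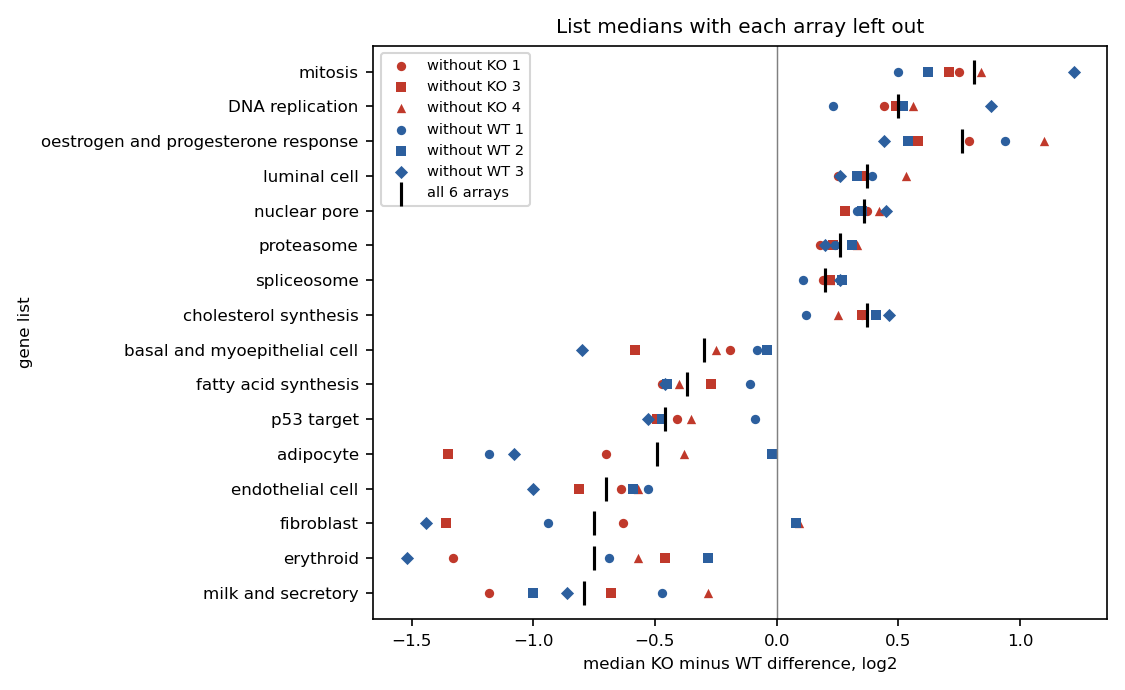
Median KO minus WT difference in log2 ratio (x axis) of 16 gene lists (y axis) with all 6 arrays (black bar) and with each array left out (points, KO red and WT blue). Nuclear pore genes stay between 0.28 and 0.45, mitosis genes between 0.50 and 1.22, and fibroblast genes change sign without KO replicate 4 or WT replicate 2.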

How the data were processed

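RNA of microdissected tumour epithelium (Cy3) and a reference RNA (Cy5) were hybridised to 2-colour arrays with no dye swap, per the labels' protocols. Agilent Feature Extraction 10.7.3.1 made the deposited scanner files, per the file headers. Their deposited columns hold the median intensity per spot and channel, the local background and Agilent's processed intensity. A deposited log10 column sets Cy5 against Cy3. The deposited log2 value table has 6 epithelial columns that ran as reference over sample (r -0.988 to -0.966 with sample over reference). Their scale and centring are not given in the sources used here. Its stromal columns went with no array and were left out.

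An array carries 62976 spots, 3671 of them controls. Median signals were corrected with normexp (offset 50), normalised by loess within array with controls at weight 0, and turned to sample over reference. Spots flagged as non-uniform were set missing. Spots of a probe were averaged (55681 probes). A RefSeq table (GRCm38.p6) named 27235 probes by accession, giving 20660 genes. The headers name another build, so no gene coordinates are given beside those of the RefSeq promoter windows. A probe stayed in where Cy3 was flagged above background on 3 or more of 12 arrays, and the brightest stood for its gene (13351 genes, 2601 with over 1 kept probe).

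A limma 3.58.1 model in R 4.3.3 estimated 4 group means over 12 arrays (8 residual degrees of freedom), and Benjamini-Hochberg adjusted p under 0.05 over all genes was the threshold. The script was tested on simulated data. The members, lists and rules were chosen with earlier results of these data known. Named genes are Rarb and Wnt1, every called gene, the 12 smallest p each way among genes at least 2-fold apart without overlap, the 5 largest differences each way without overlap, and up to 4 members with the smallest p of each list described. Symbols of clones or predicted genes are counted only, and some genes the rule picks are not reported here. A bound ("at least") uses Cy3 levels normalised with loess and Aquantile. Differences of the reference channel come from a separate fit of single-channel levels. Alternatives changed the background correction, scaling, filter, probes, weights, blocks and arrays used.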

Additional observations from a re-analysis of the deposited data

How the results depend on the processing

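The count of genes higher in KO, 1 in the analysis as reported, was 0 with the 6 epithelial arrays alone (918 at an unadjusted p under 0.05), with Agilent's processed signals (905), with a normexp offset of 16 (1054), with the filter on all 12 arrays, which leaves Tspan1 untested (790), in the authors' deposited table (689) and in Cy3 alone (1520). It was 0 without any 1 of the 6 arrays (646 to 1413), and the count of genes lower stayed at 0 there. Tspan1 passed in 9 of 21 settings that tested it, with a log2 difference of 2.52 to 4.35 and a limma adjusted p of 0.0135 to 0.392. The 9 are not separate checks. Aquantile scaling, the mean of kept probes and missing departing reference values, all among them, leave the Tspan1 ratios as they were. Setting missing the values with a departing reference, and using Cy3 alone, were chosen after seeing the data. The cause of these changes was not tested, except that fewer arrays or genes enter some of them.

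KO and WT share the replicate numbers 1 and 3, which pair nothing by the labels. Deviations from the group means correlated at 0.30 for number 1 and -0.30 for number 3. With the replicate block 0 genes were higher and 1 lower, Wap (-4.15, adjusted p = 0.00778), while Tspan1 had an adjusted p of 0.162 and Rarb a difference of 0.10.

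In the reference channel 3 genes were higher and 28 lower with median centring, and 0 to 2 higher and 2 to 41 lower with 1 array left out, the most without WT replicate 3. The test of the epithelial against the stromal effect called 43 genes higher and 7 lower without the tumour term. With 1 tumour left out it called 0 to 61 higher and 0 to 83 lower, above 0 only without WT tumour 3.

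Of 108 genes recomputed under 22 settings, 106 kept their sign in every setting that held them, since some settings leave a gene out (2346 values in all). Most were named for a small p or a large difference on these same arrays. For genes without overlap the settings that leave out 1 array could not change the sign. Fits of the epithelial arrays alone, with tumour as a random block or with Aquantile scaling could not test it either. They keep the group means of genes with a value on every array. Rarb was positive in Cy3 alone (0.01) and ran from -0.60 to 0.64 with 1 array left out. Wnt1 was positive with Agilent's processed signals (0.23), a normexp offset of 16 (0.02) and the authors' deposited table (0.11), and ran from -0.24 to 0.07 with 1 array left out. Of 682 recomputed medians of the 31 lists described, 641 moved by at most the list's own SD between arrays of a genotype. The 641 include the epithelial arrays alone, tumour as a random block and Aquantile scaling, where the list medians stayed as reported. These settings keep the group means, so they say nothing about how stable a median is. The SD between arrays is wide for variable lists, so the 641 also include changes of sign. The fibroblast median (SD 1.22), for example, went from -0.75 to 0.09 without KO replicate 4.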

Other observations

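Outside the rule for naming genes, and chosen after their values were seen, 3 more genes of growth control had non-overlapping groups. Mycn, a transcription factor gene of the Myc family, had log2 ratios of 2.84, 2.47 and 2.94 in KO and -0.09, -0.33 and 2.22 in WT (2.15, SE 0.68), so WT replicate 3 again lay next to the KO arrays. Pthlh, which encodes a parathyroid hormone-related peptide of the mammary gland, had 2.95, 4.46 and 2.08 against 0.45, 1.13 and 1.79 (2.03, SE 0.65). Mir17hg, the host transcript of a microRNA cluster that Myc proteins are known to activate, had 2.25, 2.26 and 1.88 against 0.37, 1.29 and 1.14 (1.20, SE 0.31). None passed (limma adjusted p = 0.613, 0.613 and 0.598). Of all genes 9.53% had non-overlapping groups with KO higher, and growth control genes were not counted as a group. Myc itself, described with the Wnt targets, had non-overlapping groups with KO lower.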
